A study of Mus musculus with 12 samples.

Results

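Fabp4 and 9 other genes of fatty acid capture and uptake were followed in the stromal vascular fraction from adipose tissue of mice, which is what remains of fat after the mature adipocytes are removed. The 10 genes are Fabp4, Gpihbp1, Tcf15, Meox2, Aqp7, Lpl, Cd36, Slc27a1, Slc27a3 and Slc27a4, out of 24422 features counted. They were chosen by name, and for the level of Fabp4, which had the highest group means in the 2 knock-in groups that carry Tert or TertCi. That order of groups is therefore a description of the choice, and no test is given for the 10 genes in the comparisons of the knock-in groups with the high-fat diet control.

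Poly-A RNA was sequenced from 12 libraries in 4 groups of 3. By the sample labels, all 4 groups carry a cassette at 1 allele of p21 (Cdkn1a), a cell cycle inhibitor. The p21 promoter thus drives the cassette and the other allele is the endogenous one. The design text instead names the high-fat diet control without mCherry, and the labels were followed. Replicates 1, 2 and 3 of the genotype p21+/mcherry had the standard diet (group SD mCherry), and replicates 15, 17 and 20 of the same genotype had the high-fat diet (group HFD mCherry). The genotypes p21+/mcherry-Tert (HFD Tert, replicates 25, 26 and 27) and p21+/mcherry-TertCi (HFD TertCi, replicates 30, 31 and 33) were studied on the high-fat diet only. Tert is the catalytic subunit of telomerase and TertCi is its catalytically inactive form. The labels give no age, sex, fat depot or batch, and they do not say that the 3 libraries of a group came from separate animals, so every p-value here measures the spread between these libraries.

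Fatty acids reach tissues packed as triglyceride in lipoproteins. Lipoprotein lipase (Lpl) is made largely by parenchymal and stromal cells, is carried across the capillary wall by the endothelial protein Gpihbp1, and frees fatty acids at the luminal surface. Cd36 and the fatty acid transport proteins of the Slc27a family bring fatty acids into or across cells, Fabp4 binds them in the cytosol of adipocytes, capillary endothelial cells and some macrophages, and Aqp7 is a channel for glycerol. Meox2 and Tcf15 are transcription factors that act as a pair in capillary endothelium and are known to drive Fabp4, Cd36 and Lpl there.

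Promoters of 3 genes are shown because these genes followed 3 different patterns described further on: Cd36 was high in HFD mCherry, Meox2 overlapped between neighbouring groups, and Slc27a1 was low in both knock-in groups. Each line gives the 250 bases before the first RefSeq start in build GRCm38.p6, read 5′ to 3′ on the strand of the gene. The windows are chr5:17835897-17836146 on the minus strand for Cd36, chr12:37108290-37108539 on the plus strand for Meox2, and chr8:71568621-71568870 on the plus strand for Slc27a1. The Cd36 window lies inside the longer GENCODE span of the gene given further on, chr5:17781690-17888801, and not before it. Capitals mark the E-box, CANNTG, the site bound by basic helix-loop-helix factors such as Tcf15, and the homeobox core TAATTA, searched on both strands.
Cd36: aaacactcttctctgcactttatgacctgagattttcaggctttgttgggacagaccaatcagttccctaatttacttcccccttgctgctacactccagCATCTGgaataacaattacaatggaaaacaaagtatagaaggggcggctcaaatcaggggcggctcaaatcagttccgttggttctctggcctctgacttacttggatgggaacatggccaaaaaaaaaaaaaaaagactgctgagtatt
Meox2: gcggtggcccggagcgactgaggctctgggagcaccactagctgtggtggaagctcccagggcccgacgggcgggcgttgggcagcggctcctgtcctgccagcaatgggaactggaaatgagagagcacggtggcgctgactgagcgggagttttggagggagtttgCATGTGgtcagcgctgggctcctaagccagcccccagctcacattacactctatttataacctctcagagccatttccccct
Slc27a1: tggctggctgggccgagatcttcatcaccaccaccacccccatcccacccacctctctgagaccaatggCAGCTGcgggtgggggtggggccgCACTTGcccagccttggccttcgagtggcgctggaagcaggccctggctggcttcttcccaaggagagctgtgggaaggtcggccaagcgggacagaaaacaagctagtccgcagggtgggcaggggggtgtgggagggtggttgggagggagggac
The E-box of Cd36 begins 150 bases before the start, that of Meox2 begins 82 bases before it, and the pair in Slc27a1 begins 181 and 157 bases before it. RefSeq promoters were matched for 6 of the 10 genes (Cd36, Aqp7, Meox2, Slc27a1, Slc27a3 and Slc27a4), and a CANNTG was present in the windows of all 6. The same motif was present in 66.2% of 32851 RefSeq promoter windows of 250 bases. TAATTA was present in none of the windows of the 6 genes and in 4.84% of all windows. These matches describe letters and not binding.

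Libraries held 16430330 to 19486965 counts. Tert had 8 to 78 counts in SD mCherry, 17 to 30 in HFD mCherry and 131 to 304 in the 6 knock-in libraries, and the added feature mCherry_Tert had 0 counts in the 6 mCherry libraries. Crisp1, an epididymal secretory protein, was under 1 CPM (counts scaled to a common normalised library size) in 4 libraries, 1 in each group (SD mCherry replicate 2, HFD mCherry replicate 20, HFD Tert replicate 27 and HFD TertCi replicate 31), and above 500 CPM in the other 8. The labelled stromal fraction was checked with marker lists: 20 endothelial genes, led by Cldn5, Pecam1 and Cdh5, summed to 1322 to 7486 CPM over the libraries, and 18 progenitor genes, led by Col3a1 and Dcn, to 4284 to 26597 CPM. The 20 adipocyte genes, led by Scd1, Fasn and Pnpla2, summed to 383 to 1315 CPM, and none of them was at 0 throughout a group. The 10 epididymal and epithelial genes, led by Akr1b7 and Crisp1, summed to 4.76 to 56805 CPM. The 11 pericyte and smooth muscle genes summed to 1702 to 24390 CPM. Both maxima were above that of the endothelial list, so some libraries held much RNA of these other kinds.

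Fabp4 was the most abundant of the 10 genes per transcript length, at a mean of 1895 CPM per kilobase over the 12 libraries, against 237 for Cd36, 179 for Lpl, 175 for Gpihbp1, 34.1 for Tcf15 and 21.4 for Slc27a1. The other 4 genes lay between 3.84 CPM per kilobase for Slc27a3 and 9.73 for Slc27a4. The length used is that of the principal transcript in GENCODE M21.

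Fabp4 (chr3:10204088-10208576, GRCm38), which carries fatty acids in the cytosol, was counted at 335, 446 and 207 CPM in SD mCherry and at 878, 1686 and 983 CPM in HFD mCherry. In HFD Tert it was at 702, 2062 and 6132 CPM, and in HFD TertCi at 1835, 3440 and 1670 CPM. The standard-diet libraries lay below all others, while the 3 high-fat diet groups overlapped. The mean was 329 ± 120 CPM for SD mCherry, 1182 ± 439 for HFD mCherry, 2315 ± 978 for HFD TertCi and 2965 ± 2825 for HFD Tert (SD, n = 3). In HFD Tert the SD was nearly as large as the mean, with replicate 27 above every other library and replicate 25 below every HFD mCherry library. The log2 fold change against HFD mCherry was 1.33 ± 0.665 (SE) in HFD Tert and 0.97 ± 0.659 in HFD TertCi. Without HFD Tert replicate 27 the first value was 0.23, and without HFD TertCi replicate 31 the second was 0.57. In the 8 libraries with Crisp1 above 500 CPM, 2 per group, these log2 fold changes were 0.11 and 0.45.

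**Figure D1:**
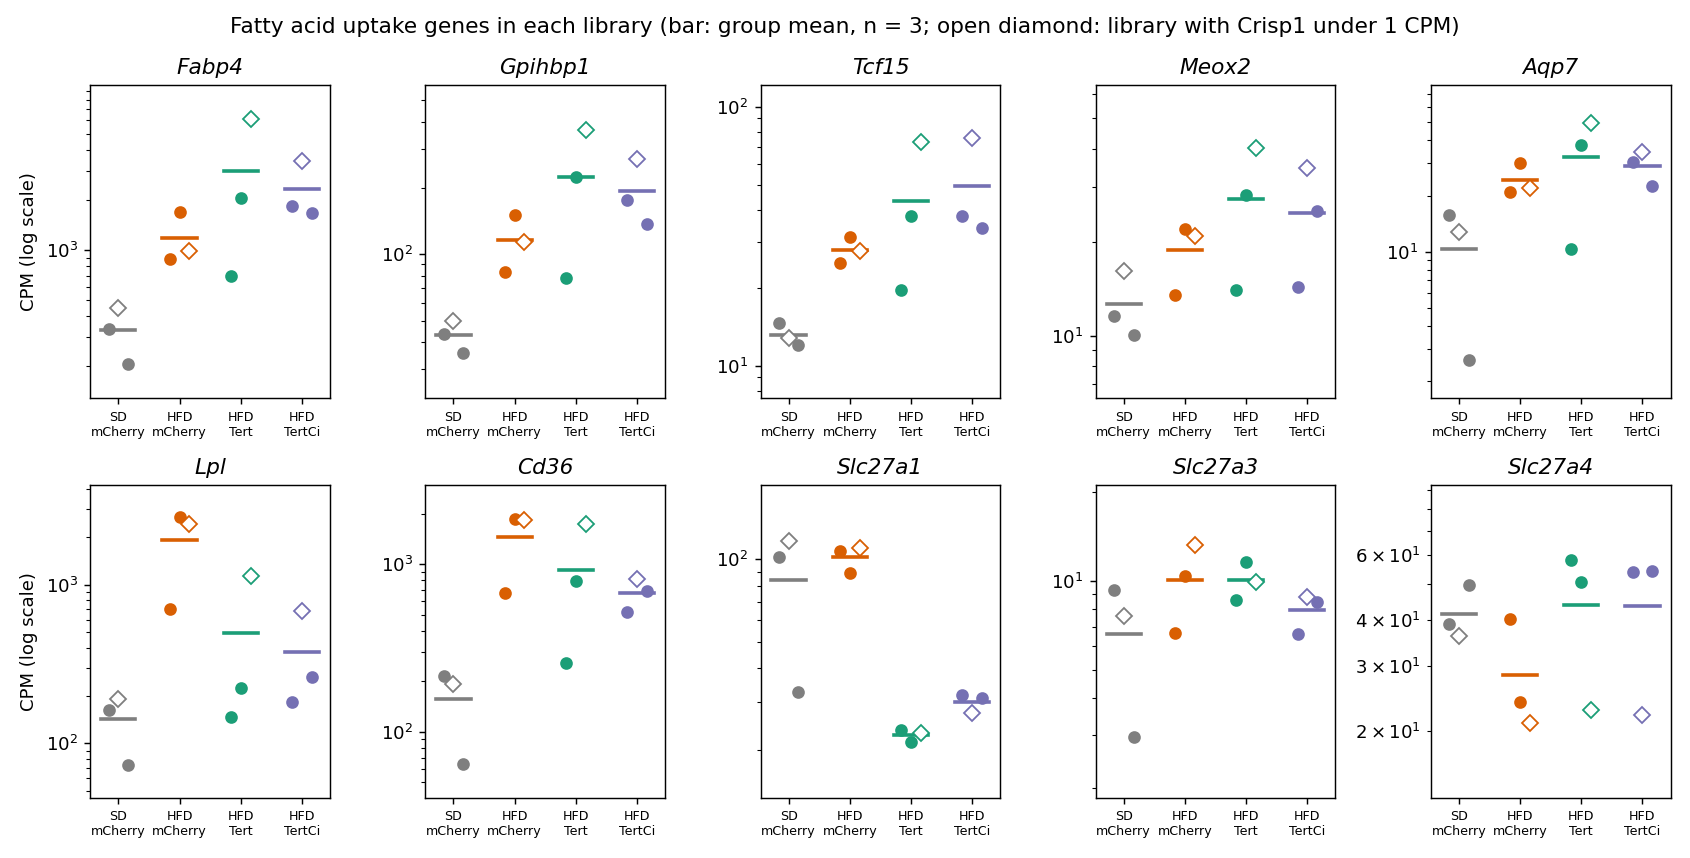
Level of each of the 10 genes in CPM (log scale) in the 12 libraries, grouped by genotype and diet, with a bar at the mean of each group of 3 and open diamonds for the 4 libraries with Crisp1 under 1 CPM. Fabp4 runs from 207 to 446 CPM in SD mCherry and from 702 to 6132 CPM in HFD Tert, and Slc27a1 lies between 21.5 and 32.0 CPM in both knock-in groups.

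Gpihbp1 (chr15:75596628-75599481), the endothelial carrier of the lipase, tracked Fabp4 library by library. It was at 43.5, 49.5 and 35.6 CPM in SD mCherry, 83.4, 151 and 114 CPM in HFD mCherry, 78.4, 224 and 367 CPM in HFD Tert, and 175, 269 and 137 CPM in HFD TertCi. As for Fabp4, only the standard-diet group stood apart from its neighbour in the order of means. The log2 fold change against HFD mCherry was 0.94 ± 0.472 in HFD Tert and 0.74 ± 0.471 in HFD TertCi. These values were 0.37 and 0.42 in the 8 libraries with Crisp1 above 500 CPM. Across the 12 libraries the gene most like Fabp4 among 10598 genes averaging 10 CPM or more was Gpihbp1 (Pearson r = 0.989 of log2 CPM), followed by Ctla2b at 0.972, Tcf15 at 0.971, Ushbp1 at 0.966 and Cldn5 at 0.966. For Gpihbp1 the list was Fabp4 at 0.989, Ctla2b at 0.978, Tcf15 at 0.972, Parp10 at 0.965 and Cldn5 at 0.962. Cldn5 encodes the tight junction protein claudin 5 of endothelial cells. These likenesses are descriptions over libraries that share their group and their make-up.

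Tcf15 and Meox2, the endothelial transcription factors, were low in abundance. Tcf15 (chr2:152143561-152149097) was at 14.7, 12.8 and 12 CPM in SD mCherry, 24.8, 31.3 and 27.8 CPM in HFD mCherry, 19.5, 37.9 and 72.7 CPM in HFD Tert, and 38.0, 75.8 and 33.9 CPM in HFD TertCi. All 3 HFD TertCi libraries lay above the HFD mCherry libraries, and the HFD Tert libraries spanned them. Its log2 fold change against HFD mCherry was 0.63 ± 0.431 in HFD Tert, which was 0.039 without replicate 27, and 0.82 ± 0.432 in HFD TertCi. Both were smaller in the 8 libraries with Crisp1 above 500 CPM, at 0.036 and 0.36. Meox2 (chr12:37108540-37179534) was at 11.6, 16.2 and 10.1 CPM in SD mCherry, 13.5, 22.1 and 20.9 CPM in HFD mCherry, 14.1, 28.3 and 40.1 CPM in HFD Tert, and 14.4, 34.7 and 25.2 CPM in HFD TertCi. Every pair of neighbouring groups in the order of its means overlapped.

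Aqp7 (chr4:41033074-41048139), the glycerol channel, was at 15.8, 12.7 and 2.61 CPM in SD mCherry and 21, 29.9 and 21.9 CPM in HFD mCherry. In HFD Tert it was at 10.3, 37.4 and 49.2 CPM and in HFD TertCi at 30.5, 34.2 and 22.5 CPM. The standard-diet group lay below the high-fat diet control without overlap, and the other groups overlapped. The reference transcripts of Aqp7 share 3.87% of their 50-base stretches with other genes, against 1.43% for Slc27a1, 1.4% for Lpl and 0% for the other 7 genes.

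Lpl and Cd36 had another order of groups, with HFD mCherry highest. Lpl (chr8:68880491-68907448) was at 163, 190 and 72.5 CPM in SD mCherry, 705, 2674 and 2408 CPM in HFD mCherry, 146, 222 and 1129 CPM in HFD Tert, and 183, 684 and 263 CPM in HFD TertCi. The HFD TertCi libraries all lay below the HFD mCherry libraries, and in HFD Tert only replicate 27 lay among them. The group means were 142 ± 61.7, 1929 ± 1068, 499 ± 547 and 377 ± 269 CPM in the same order. The log2 fold change of Lpl against HFD mCherry was −1.95 ± 0.836 in HFD Tert and −2.36 ± 0.848 in HFD TertCi. It was −3.39 in HFD Tert without replicate 27 and −3.11 in HFD TertCi without replicate 31, and −3.19 and −2.92 in the 8 libraries with Crisp1 above 500 CPM. Cd36 (chr5:17781690-17888801), the scavenger receptor that takes up long-chain fatty acids, was at 215, 192 and 64.6 CPM in SD mCherry, 669, 1862 and 1845 CPM in HFD mCherry, 256, 790 and 1734 CPM in HFD Tert, and 519, 816 and 690 CPM in HFD TertCi. Both knock-in groups overlapped the high-fat diet control. The log2 fold change was −0.65 ± 0.658 in HFD Tert, which was −1.48 without replicate 27, and −1.11 ± 0.663 in HFD TertCi. The values in the 8 libraries with Crisp1 above 500 CPM were −1.27 and −1.06. The genes most like Lpl over the 12 libraries were Mtmr10 and Adamtsl3 at r = 0.985, Col3a1 at 0.985, Lum at 0.984 and Il1rl1 at 0.984, of which Col3a1 and Lum encode matrix proteins of fibroblast-like cells.

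The fatty acid transport proteins Slc27a1, Slc27a3 and Slc27a4 did not share a pattern. Slc27a1 (chr8:71568882-71587302), a transporter and acyl-CoA synthetase of muscle and fat, was at 102, 117 and 32.6 CPM in SD mCherry and 108, 89.0 and 110 CPM in HFD mCherry. In HFD Tert it was at 23.8, 21.5 and 23.1 CPM and in HFD TertCi at 32.0, 27.4 and 31 CPM. The knock-in libraries lay below all HFD mCherry libraries, and SD mCherry replicate 3 lay just above the highest of them. The log2 fold change of Slc27a1 against HFD mCherry was −2.17 ± 0.377 in HFD Tert and −1.76 ± 0.372 in HFD TertCi. Unlike those of Fabp4, these values hardly moved in the 8 libraries with Crisp1 above 500 CPM, at −2.12 and −1.65. Slc27a3 (chr3:90385239-90389938) ranged from 2.95 to 13.2 CPM over all libraries and every neighbouring pair of groups overlapped. Slc27a4 (chr2:29802634-29817522), a transporter of many tissues including epithelia, ranged from 21.1 to 58.3 CPM. Its lowest library in each group was the 1 with Crisp1 under 1 CPM, at 36.3, 21.1, 22.9 and 22.1 CPM. Fabp4, Gpihbp1, Lpl and Meox2 were instead highest of their group in 3 of these 4 libraries and lowest in 0. Cd36, Aqp7, Tcf15, Slc27a1 and Slc27a3 were highest in 2 of the 4, and of these only Slc27a1 was lowest in 1.

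**Figure D2:**
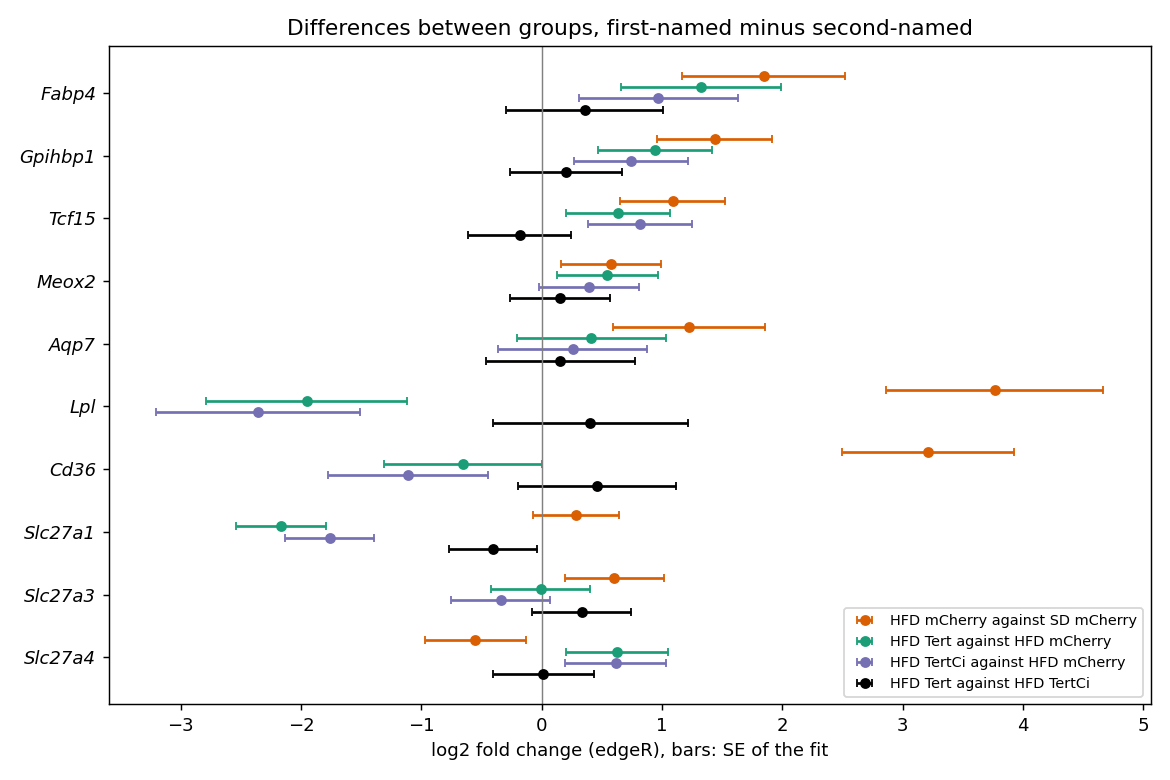
Log2 fold change of the 10 genes in 4 comparisons (first-named group minus second-named group), with bars for the standard error of the edgeR fit. Slc27a1 is the gene farthest below 0 in HFD Tert against HFD mCherry at −2.17, Lpl reaches −2.36 in HFD TertCi against HFD mCherry and 3.77 in the diet comparison, and in HFD Tert against HFD TertCi the bars of every gene but Slc27a1 cross 0.

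Over the 10 genes, 6 had a log2 fold change above 0 in HFD Tert against HFD mCherry, beside 46.2% of all 16713 tested genes, and 6 had one in HFD TertCi, beside 47.4%. Without overlap between the libraries, 0 were higher in HFD Tert, beside 9.99% of all tested genes, and 1 (Slc27a1) was lower, beside 11.1%. In HFD TertCi 1 was higher without overlap (Tcf15), beside 9.45%, and 2 were lower (Lpl and Slc27a1), beside 12%. These counts stem from the comparisons that chose the genes, and nothing is read from them. Both comparisons use the same 3 HFD mCherry libraries. With edgeR at an adjusted p under 0.05, 0% of all genes were called in HFD Tert and 0.012% in HFD TertCi. The median log2 fold change of the 10 genes was 0.48 in HFD Tert and 0.33 in HFD TertCi, against −0.053 and −0.039 over all tested genes.

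The diet comparison, HFD mCherry against SD mCherry, asked which of these genes differed with the high-fat diet at the same labelled genotype. Lpl and Cd36 had the largest differences of the 10, at a log2 fold change of 3.77 ± 0.901 for Lpl and 3.21 ± 0.714 for Cd36 (13.6-fold and 9.28-fold). Neither passed edgeR's quasi-likelihood test after Benjamini-Hochberg adjustment over 16713 genes, with adjusted p = 0.0728 for Lpl and 0.0685 for Cd36. DESeq2 called both, at adjusted p = 0.000167 for Lpl and 0.000116 for Cd36. Fabp4 was 3.59-fold higher in HFD mCherry (log2 fold change 1.84 ± 0.675, adjusted p = 0.146 with edgeR and 0.0405 with DESeq2). Gpihbp1 was 2.71-fold higher (1.44 ± 0.478, adjusted p = 0.123 with edgeR and 0.0407 with DESeq2). Aqp7 had a log2 fold change of 1.23 ± 0.628 and Tcf15 of 1.09 ± 0.436, with edgeR adjusted p of 0.252 and 0.172.

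In all, 6 of the 10 genes (Fabp4, Gpihbp1, Tcf15, Aqp7, Lpl and Cd36) were higher in every HFD mCherry library than in any SD mCherry library, against 13.9% of all tested genes, and none was lower without overlap, against 11.6%. In 9 of the 10 the log2 fold change was above 0, beside 45.9% of all genes. With edgeR 0 of the 10 passed the adjusted threshold, beside 0.0479% of all genes, and 5 had an unadjusted p under 0.05, all higher, beside 14.1% of all genes higher at that level. DESeq2 called 4 of the 10 higher, beside 8.03% of the genes it tested. Meox2, Slc27a1 and Slc27a3 had log2 fold changes of 0.58, 0.29 and 0.61, and Slc27a4 of −0.55, each with overlapping groups. The median of the 10 was 1.16 against −0.075 over all tested genes. Without HFD mCherry replicate 15, edgeR called Lpl and Cd36, and it also called them without HFD Tert replicate 27, a library outside the comparison that enters through the shared estimate of the spread. In the 8 libraries with Crisp1 above 500 CPM the log2 fold changes were 3.83 for Lpl, 3.16 for Cd36 and 2.23 for Fabp4, and edgeR called none of the 10.

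HFD Tert against HFD TertCi compared the active with the catalytically inactive Tert. With edgeR 0 of the 10 genes passed, every adjusted p being 1, beside 0% of all tested genes, and 0 had an unadjusted p under 0.05 beside 1.36% of all genes. DESeq2 called 0 of the 10 as well, beside 0.0341% of the genes it tested. Log2 fold changes (HFD Tert minus HFD TertCi) ran from −0.40 ± 0.363 for Slc27a1 to 0.46 ± 0.657 for Cd36. Slc27a1 was the only one of the 10 whose groups did not overlap, at 22.8 ± 1.20 CPM in HFD Tert and 30.1 ± 2.39 CPM in HFD TertCi (SD, n = 3), beside 2.58% of all genes lower without overlap. The log2 fold change of Fabp4 was 0.36 ± 0.654 and became −0.74 without HFD Tert replicate 27, and that of Lpl was 0.41 ± 0.808 and became −1.03. At standard errors of this size these libraries do not show that the 2 forms of Tert act alike on these genes.

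The ratio of Lpl to its carrier Gpihbp1 within a library was set out after the values had been seen, with no test. Lpl divided by Gpihbp1, in CPM, was 3.74, 3.85 and 2.04 in SD mCherry and 8.45, 17.7 and 21.2 in HFD mCherry. It was 1.86, 0.991 and 3.08 in HFD Tert and 1.05, 2.54 and 1.91 in HFD TertCi. The ratio in every HFD mCherry library was thus above that in any other library. Cd36 divided by Gpihbp1 was also highest in HFD mCherry, at 8.02 to 16.2, against 1.82 to 5.02 in the other 9 libraries. Below that group the orders differed: the mean for SD mCherry came next for Lpl, at 3.21 against 1.98 in HFD Tert and 1.83 in HFD TertCi, and last for Cd36, at 3.55 against 3.84 and 3.67, all with overlapping libraries. Fabp4 divided by Gpihbp1 was 7.51 ± 1.61 for SD mCherry, 10.1 ± 1.30 for HFD mCherry, 11.8 ± 1.19 for HFD TertCi and 11.6 ± 4.41 for HFD Tert, with HFD mCherry overlapping both knock-in groups.

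**Figure D3:**
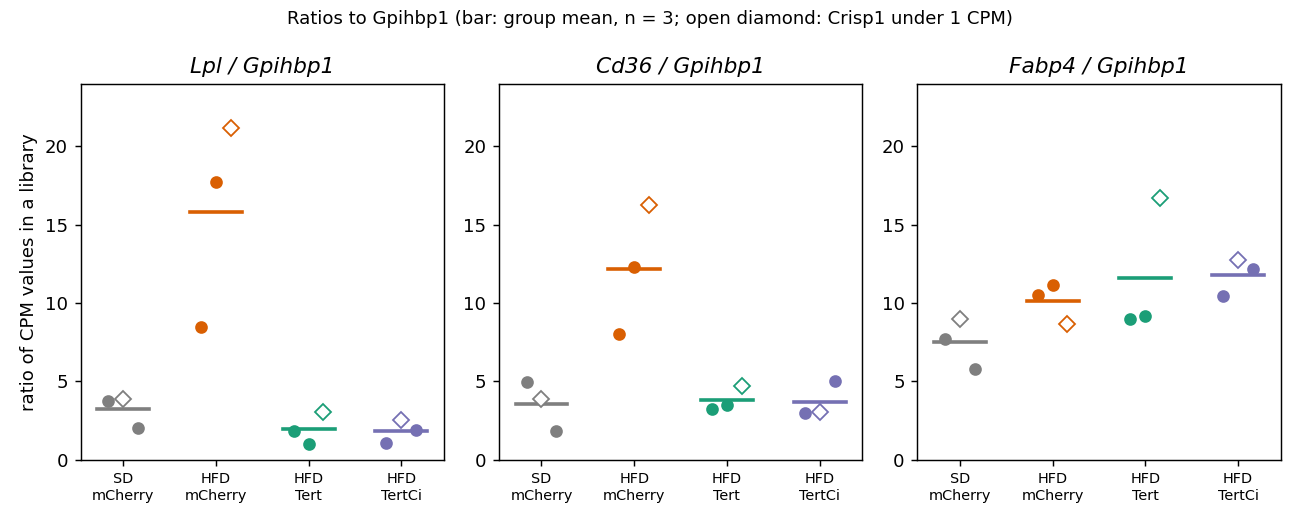
Ratio of Lpl, Cd36 and Fabp4 to Gpihbp1 in CPM within each library (linear axis from 0), with a bar at the mean of each group of 3 and open diamonds for libraries with Crisp1 under 1 CPM. Lpl divided by Gpihbp1 lies at 8.45 to 21.2 in HFD mCherry and at 0.991 to 3.85 in the other 9 libraries.

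Markers of cell types that the fraction can hold moved with the groups. The endothelial list had a mean log2 CPM of 5.86 ± 0.219 for SD mCherry, 6.79 ± 0.441 for HFD mCherry, 7.18 ± 0.540 for HFD Tert and 7.16 ± 0.592 for HFD TertCi (SD, n = 3), the same order as Fabp4 and Gpihbp1. Its 20 genes summed to 1322 to 1900, 2544 to 4568, 3178 to 7453 and 3369 to 7486 CPM. The other lists are given in the same sequence of groups. The capillary list of 10 genes, led by Plvap and Cxcl12, had 5.02 ± 0.742, 6.61 ± 0.369, 6.33 ± 0.884 and 6.49 ± 0.209, low in SD mCherry and without the order of Fabp4 among the high-fat diet groups. The macrophage list of 18 genes, led by Cd14 and Lyz2, had 5.24 ± 0.189, 7.40 ± 0.723, 5.48 ± 1.09 and 5.67 ± 0.526, highest in HFD mCherry as Lpl and Cd36 were, and its summed level ran over 1412 to 1597, 3285 to 9386, 1129 to 3717 and 1497 to 2729 CPM. The progenitor list had 7.25 ± 0.490, 8.49 ± 0.625, 7.90 ± 0.497 and 7.73 ± 0.373. By mean log2 CPM the adipocyte list went the other way, at 3.63 ± 0.592, 2.31 ± 0.292, 3.30 ± 0.549 and 2.91 ± 0.166. Its summed levels, of 773 to 1315, 430 to 795, 383 to 742 and 402 to 738 CPM, did not put HFD mCherry lowest. The mean log2 CPM weighs all genes alike, and several were near the floor. Group means ran from 1.18 to 4.43 CPM for Adipoq and from 1.74 to 4.03 CPM for Plin1. In HFD mCherry Cfd averaged 0.409 CPM and Retn 0.140 CPM. Other lists were lowest in HFD mCherry by mean log2 CPM as well. The pericyte and smooth muscle list, led by Tagln and Myh11, had 7.49 ± 0.739, 6.80 ± 0.375, 8.05 ± 0.928 and 7.86 ± 0.550. The mesothelial list, led by Krt8 and Krt18, had 6.17 ± 0.998, 4.98 ± 0.318, 6.71 ± 0.855 and 6.27 ± 0.122. Against HFD mCherry, DESeq2 called 5 of 10 mesothelial and 4 of 11 pericyte and smooth muscle genes higher in HFD Tert. It also called 4 of 19 tested adipocyte genes higher, beside 1.78% of all the genes it tested. Lower were 8 of 18 macrophage, 3 of 18 progenitor and 1 of 6 tested epididymal and epithelial genes, beside 3.08%. With edgeR none of these was called in that comparison. With diet DESeq2 called 13 of 18 macrophage, 8 of 18 progenitor, 7 of 20 endothelial and 6 of 10 capillary genes higher, beside 8.03%. Lower were 5 of 19 tested adipocyte and 3 of 11 pericyte and smooth muscle genes, beside 4.57%, with 2 of the latter list higher. In HFD TertCi against HFD mCherry it called 8 of 18 macrophage, 4 of 18 progenitor and 1 of 10 capillary genes lower, beside 2.57%. Higher were 3 of 10 mesothelial, 3 of 19 adipocyte, 2 of 11 pericyte and smooth muscle and 1 of 20 endothelial genes, beside 1.13%. EdgeR called 1 adipocyte gene lower with diet and 1 progenitor gene lower in HFD TertCi. The group means ran over 4.45 to 4.93 for the lymphatic endothelial list, 5.71 to 6.75 for the erythrocyte list, 0.984 to 2.38 for the skeletal muscle list and 3.40 to 5.92 for the epididymal and epithelial list, whose libraries spread widely within each group. In these bulk libraries fewer cells of a type and less RNA per cell cannot be told apart, and the part of cell make-up in the differences of the 10 genes was not tested.

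Set against the endothelial list of the same library, Fabp4 was higher by 2.44 ± 0.341, 3.36 ± 0.402, 3.84 ± 1.05 and 3.94 ± 0.357 on the log2 scale, in the same order of groups. Gpihbp1 differed from it by −0.44 ± 0.021, 0.029 ± 0.210, 0.36 ± 0.688 and 0.38 ± 0.466. Meox2 stood at −2.21 ± 0.164, −2.58 ± 0.067, −2.52 ± 0.354 and −2.62 ± 0.118, with the SD mCherry libraries (−2.34 to −2.03) above those of HFD mCherry (−2.65 to −2.51) and the 3 high-fat diet groups overlapping. Lpl stood at 1.18 ± 0.536, 3.90 ± 0.629, 1.20 ± 1.02 and 1.16 ± 0.430, so relative to endothelial markers HFD mCherry was again the high group. Slc27a1 stood at 0.34 ± 0.803, −0.12 ± 0.534, −2.66 ± 0.550 and −2.25 ± 0.704, with both knock-in groups low. Fits with a list score as a covariate moved these genes apart. With the macrophage score, a setting added after the data were seen, the log2 fold changes of Lpl against HFD mCherry turned to 0.50 ± 0.529 in HFD Tert and 0.10 ± 0.482 in HFD TertCi, and those of Cd36 to 0.91 ± 0.763 and 0.45 ± 0.728. Those of Fabp4 were 2.73 ± 0.612 and 2.44 ± 0.615 in the same fit, and its diet value was −0.036 ± 0.678. The macrophage score itself separated the groups, at 5.08 to 5.45 in SD mCherry and 6.58 to 7.92 in HFD mCherry. Of the knock-in libraries only HFD Tert replicate 27, at 6.71, lay among those of HFD mCherry. Group and macrophage score can thus hardly be told apart in this fit. No fit used the progenitor score. With the endothelial score Lpl differed by −3.18 ± 0.311 and −3.17 ± 0.298, and Fabp4 by 0.38 ± 0.477 and 0.41 ± 0.432. The diet value of Meox2 turned from 0.58 to −0.47 with that score. The endothelial score did not overlap between the diet groups either, at 5.62 to 6.06 in SD mCherry and 6.28 to 7.05 in HFD mCherry. Slc27a1 stayed at −2.20 ± 0.400 and −1.79 ± 0.391 with the endothelial score and at −2.13 ± 0.580 and −1.73 ± 0.532 with the macrophage score.

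Within groups, after each group mean had been removed, 13 of 40 correlations of a gene with a marker list had an exact permutation p under 0.05 after Benjamini-Hochberg adjustment over the 40 (n = 12 libraries, 1296 permutations within groups). Of the 13, 7 were with the progenitor list, 5 with the endothelial list, 1 with the macrophage list and 0 with the adipocyte list, and Fabp4, Cd36, Lpl, Meox2 and Slc27a4 passed with both of the first 2. Lpl followed the endothelial list with Pearson r = 0.958 (exact permutation p = 0.000772, the smallest these permutations can give, adjusted p = 0.00772) and Spearman rho = 0.944 (exact permutation p = 0.000772, adjusted p = 0.00772). Without the 2 libraries farthest from the median r was 0.985. With the progenitor list Lpl had r = 0.945 and rho = 0.972 (exact permutation p = 0.000772 for each, adjusted p = 0.00772), and r = 0.955 without the 2 farthest libraries. With the macrophage list it had r = 0.922 (exact permutation p = 0.0108, adjusted p = 0.0432) and rho = 0.902 (exact permutation p = 0.00694, adjusted p = 0.0309), and r = 0.932 without the 2 farthest. Cd36 had r = 0.906 with the progenitor list (exact permutation p = 0.00231, adjusted p = 0.0154) and rho = 0.874 (exact permutation p = 0.00540, adjusted p = 0.0270), against r = 0.811 with the endothelial list. Meox2 followed the endothelial list with r = 0.935 (exact permutation p = 0.000772) and rho = 0.923 (exact permutation p = 0.000772), and with r = 0.908 without the 2 farthest libraries. Fabp4 did so with r = 0.792 (exact permutation p = 0.0131, adjusted p = 0.0451) and rho = 0.811 (exact permutation p = 0.0100, adjusted p = 0.0334), and with r = 0.849 without the 2 farthest libraries. With the progenitor list Fabp4 had r = 0.759 (exact permutation p = 0.00772, adjusted p = 0.0343) and rho = 0.867 (exact permutation p = 0.00309, adjusted p = 0.0206), and r = 0.822 without the 2 farthest. The endothelial genes Gpihbp1 and Tcf15 missed the threshold with the endothelial list, at r = 0.768 and 0.803 (exact permutation p = 0.0270 and 0.0239, adjusted p = 0.0569 and 0.0563), although rho of Tcf15 passed at 0.818 (exact permutation p = 0.0162, adjusted p = 0.0453). Both passed with the progenitor list, at r = 0.721 and 0.655 (exact permutation p = 0.0147 and 0.0139, adjusted p = 0.0451 for each). Slc27a4 ran against the endothelial list with r = −0.938 (exact permutation p = 0.00309, adjusted p = 0.0176) and rho = −0.909 (exact permutation p = 0.00926, adjusted p = 0.0334), and with r = −0.938 without the 2 farthest libraries. The 8 libraries with Crisp1 above 500 CPM were also taken alone, with no test. They are 2 per group, so with group means removed the 2 mirror each other and r rests on 1 difference per group. With the endothelial list r was 0.915 for Lpl, 0.884 for Meox2, 0.645 for Fabp4 and −0.818 for Slc27a4. It was 0.534 for Gpihbp1 and 0.484 for Tcf15. With the progenitor list r was 0.994 for Lpl, 0.729 for Meox2, 0.688 for Fabp4 and −0.941 for Slc27a4. It was 0.553 for Gpihbp1 and 0.507 for Tcf15. No correlation with the adipocyte list passed, and for Fabp4 it was −0.27 with rho of −0.13 (exact permutation p = 0.647 and 0.732). The score of that list weighs genes of a few CPM as much as abundant ones. Slc27a1 had no correlation that passed. Its largest r was with the adipocyte list, at 0.660 with rho of 0.601 (exact permutation p = 0.1397 and 0.0918, adjusted p = 0.2235 and 0.153). That r was 0.870 in the 8 libraries with Crisp1 above 500 CPM. With the endothelial list its r was 0.12 with rho of −0.19 (exact permutation p = 0.626 and 0.531). The points share libraries and their normalisation, so these relations are not independent of one another.

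**Figure D4:**
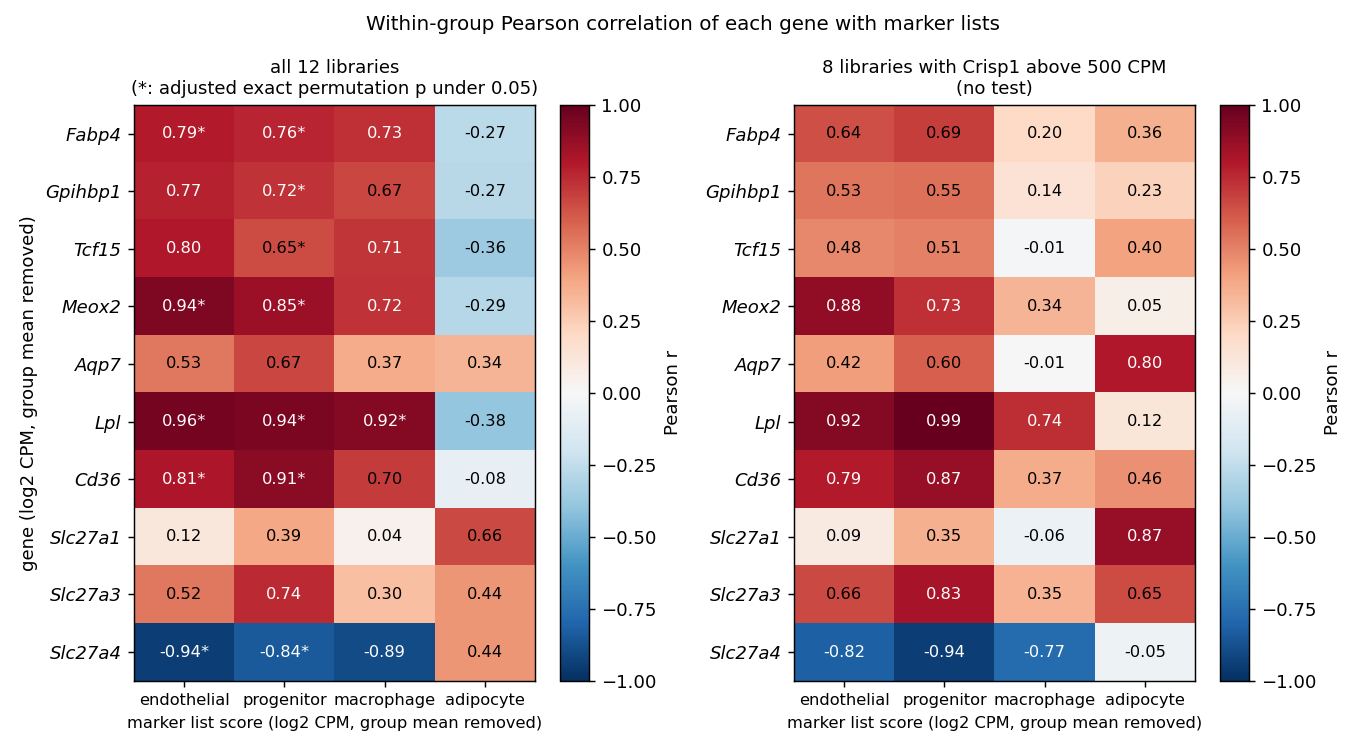
Pearson correlation of the log2 CPM of each of the 10 genes with the score of 4 marker lists (mean log2 CPM), both with group means removed, in all 12 libraries (left) and in the 8 libraries with Crisp1 above 500 CPM (right, no test), where color gives r from −1 to 1 and a star an adjusted exact permutation p under 0.05. Lpl with the endothelial list reads 0.96 on the left and 0.92 on the right, and Slc27a1 has no star. On the right each group gives only 2 libraries, which mirror each other once the group mean is removed.

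The pathway around the 10 genes was followed with 82 partners in 4 lists: partners of the lipase, uptake and binding proteins, enzymes of activation and storage, and regulators. Of these 74 passed the filter on low counts, and with edgeR 0 were called in any of the 4 comparisons. At an unadjusted edgeR p under 0.05, 23 of the 74 were higher and 11 lower with the high-fat diet, beside 14.1% and 10% of all tested genes. In HFD Tert against HFD mCherry 5 were higher and 8 lower, beside 6.62% and 9.75%, and in HFD TertCi 3 were higher and 10 lower, beside 5.76% and 8.92%. Between HFD Tert and HFD TertCi 1 was higher and 1 lower, beside 0.766% and 0.592%. DESeq2 called 15 of the 74 higher and 7 lower with diet, beside 8.03% and 4.57% of the genes it tested. It called 3 higher and 3 lower in HFD Tert, beside 1.78% and 3.08%, and 0 higher and 4 lower in HFD TertCi, beside 1.13% and 2.57%. Between HFD Tert and HFD TertCi it called 1 higher (Aqp3, a glycerol channel) and 0 lower, beside 0.0146% and 0.0195%. Aqp3 ran from 0.235 to 259 CPM in HFD Tert and from 0.322 to 1.07 CPM in HFD TertCi, so these groups overlapped. It also ran from 0.521 to 132 CPM in SD mCherry. The median log2 fold change of the 74 was 0.15 with diet, −0.022 in HFD Tert and −0.11 in HFD TertCi.

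Among partners of the lipase, 8 of 18 tested genes were higher and 1 lower with diet at an unadjusted edgeR p under 0.05, beside 14.1% and 10% of all tested genes. In each knock-in comparison 7 of 18 were lower and 0 higher, beside 9.75% lower in HFD Tert and 8.92% in HFD TertCi. Angptl4, a secreted inhibitor of Lpl, was at 94.7, 88.6 and 53.9 CPM in SD mCherry and 358, 673 and 677 CPM in HFD mCherry. It was at 178, 333 and 694 CPM in HFD Tert and 271, 287 and 320 CPM in HFD TertCi, so the standard-diet group lay below all others and HFD TertCi below HFD mCherry. Its diet log2 fold change was 2.85 ± 0.476, with adjusted p = 0.0652 by edgeR and 1.02e-06 by DESeq2. Hspg2, the basement membrane heparan sulfate proteoglycan perlecan, was 4.17-fold higher with diet (2.06 ± 0.497, adjusted p = 0.0729 by edgeR and 0.00171 by DESeq2). Sel1l, which with Lmf1 helps Lpl to fold in the endoplasmic reticulum, had a diet log2 fold change of 1.19 ± 0.298, while Lmf1 itself stayed between 8.20 and 13 CPM in all 12 libraries. Lrp1, a lipoprotein receptor, went from 1458 CPM in HFD mCherry to 453 in HFD Tert and 373 in HFD TertCi, with log2 fold changes of −1.69 ± 0.503 and −1.97 ± 0.507 and edgeR adjusted p of 0.203 and 0.189. Pcsk5, a proprotein convertase, was at 74.2, 48.6 and 47.1 CPM in HFD mCherry, 15.2, 21.6 and 39.5 in HFD Tert, and 16.2, 26.9 and 21.9 in HFD TertCi, without overlap between HFD mCherry and either knock-in group. Adjusted p for Pcsk5 in HFD Tert and HFD TertCi was 0.205 and 0.186 by edgeR and 0.0603 and 0.0219 by DESeq2. Apoe, the lipoprotein ligand, was at 2929 CPM in HFD mCherry against 1519 in HFD Tert and 1691 in HFD TertCi, again without overlap (log2 fold changes −0.95 ± 0.220 and −0.79 ± 0.220, DESeq2 adjusted p of 6.43e-05 and 0.00222, edgeR adjusted p of 0.187 and 0.203).

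**Figure D5:**
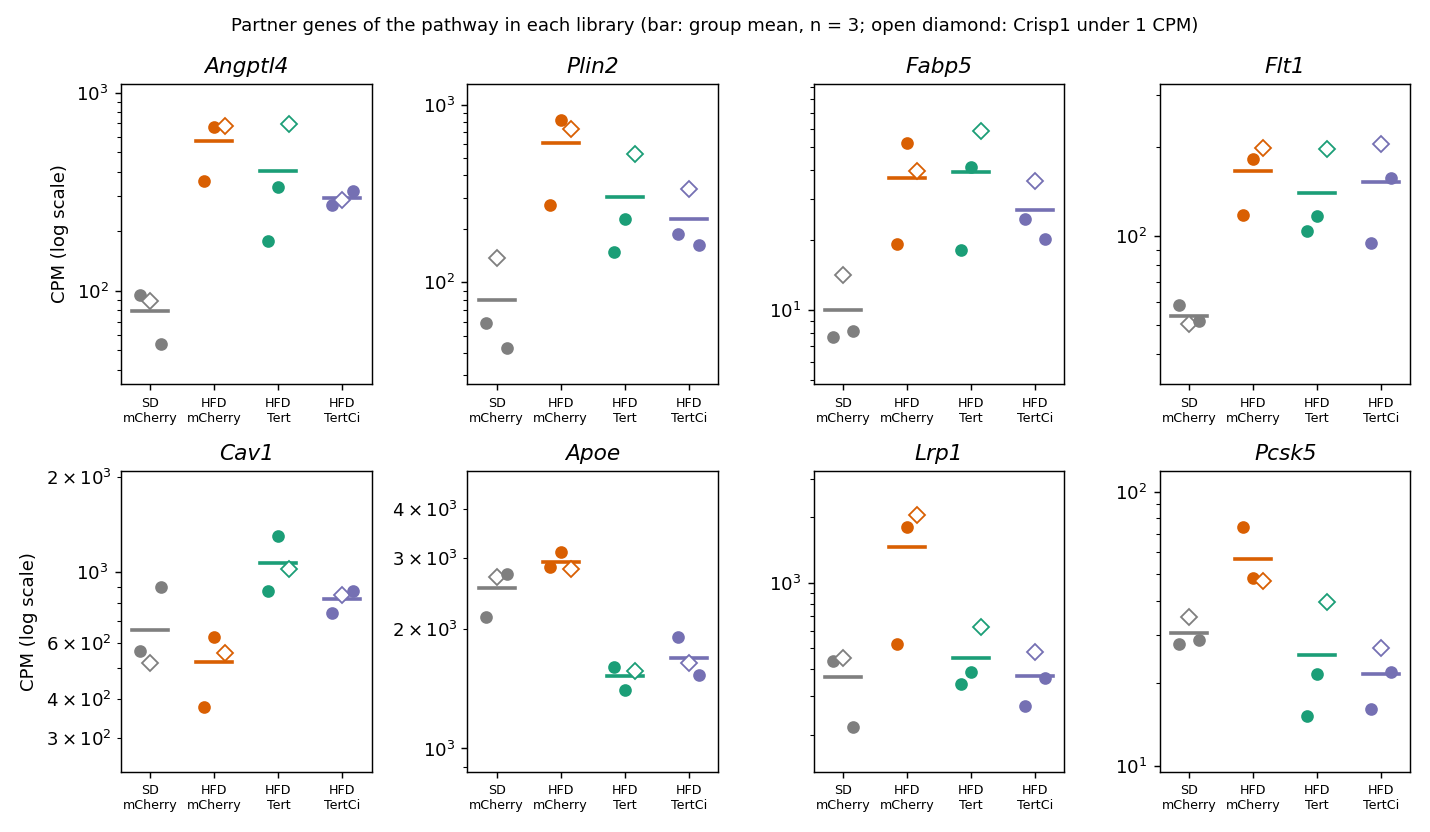
Level in CPM (log scale) of 8 partner genes in the 12 libraries, with a bar at the mean of each group of 3 and open diamonds for libraries with Crisp1 under 1 CPM. Angptl4 lies at 53.9 to 94.7 CPM in SD mCherry and at 178 CPM or more in the other groups, and Apoe and Pcsk5 lie lower in both knock-in groups than in HFD mCherry.

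Uptake and binding proteins were split. Fabp5, a fatty acid binding protein also found in macrophages and endothelium, was at 7.69, 14.2 and 8.17 CPM in SD mCherry, 19.2, 52.0 and 39.4 in HFD mCherry, 18.1, 41.1 and 58.4 in HFD Tert, and 24.6, 35.7 and 20.3 in HFD TertCi. Its diet log2 fold change was 1.88 ± 0.485, close to that of Fabp4 (edgeR adjusted p = 0.0761, DESeq2 0.00578). In HFD Tert against HFD mCherry it was 0.090 ± 0.468. Fabp3, the form of heart and muscle, was at 2.70, 3.35 and 10.8 CPM in SD mCherry and 0.939, 1.62 and 1.19 CPM in HFD mCherry. Its diet log2 fold change was −2.16 ± 0.808 (edgeR adjusted p = 0.154, DESeq2 0.0426) and −1.27 without SD mCherry replicate 3, the high library. Fabp1, the liver form, had 0 counts in all 12 libraries. Cav1, the caveolar protein caveolin 1, was at 376, 625 and 558 CPM in HFD mCherry and 873, 1301 and 1023 CPM in HFD Tert, without overlap (1.04 ± 0.289, edgeR adjusted p = 0.195, DESeq2 0.0210). The caveolar genes listed as Ptrf and Sdpr had log2 fold changes of 0.93 ± 0.385 and 0.69 ± 0.315 in the same comparison, also without overlap (edgeR adjusted p of 0.276 and 0.309). In HFD TertCi Cav1 differed from HFD mCherry by 0.66 ± 0.287.

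Of the genes of activation and storage, 4 of 18 were higher and 4 lower with diet at an unadjusted p under 0.05, beside the same 14.1% and 10% of all genes. Plin2, which coats lipid droplets, was at 58.9, 138 and 42.8 CPM in SD mCherry and 272, 820 and 733 CPM in HFD mCherry. In HFD Tert it was at 148, 228 and 530 CPM and in HFD TertCi at 187, 336 and 162 CPM, so the diet groups were apart and the knock-in groups overlapped the control. Its diet log2 fold change was 2.93 ± 0.641 (edgeR adjusted p = 0.0671, DESeq2 0.000188) and 3.58 without SD mCherry replicate 2. Hilpda, a droplet protein that inhibits lipolysis, had a diet log2 fold change of 1.81 ± 0.448. Dbi, the acyl-CoA binding protein, was lower with diet at −1.70 ± 0.582 and differed by 1.35 ± 0.577 in HFD Tert and 1.59 ± 0.580 in HFD TertCi (edgeR adjusted p of 0.129, 0.284 and 0.263). SD mCherry replicate 3 stood at 747 CPM against 188 and 190 CPM in the other two, and without it the diet value of Dbi was −0.71. Dbi was at 107, 146 and 92.0 CPM in HFD mCherry and at 177 CPM or more in every other library.

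Among regulators, Pparg, the nuclear receptor that drives Fabp4 in adipocytes, was at 10.2, 15.7 and 3.42 CPM in SD mCherry, 19.9, 35.1 and 38.2 in HFD mCherry, 18.3, 28.9 and 47.1 in HFD Tert, and 16.3, 31.1 and 21.2 in HFD TertCi. Its diet log2 fold change was 1.67 ± 0.536 (edgeR adjusted p = 0.115, DESeq2 0.0279), and its log2 fold change in HFD Tert was 0.015 ± 0.521. Ppara, the receptor of oxidative tissues, was at 22.6, 26.3 and 7.76 CPM in SD mCherry and 6.24, 0.782 and 1.43 CPM in HFD mCherry. Its diet log2 fold change was −2.74 ± 1.05 (edgeR adjusted p = 0.162, DESeq2 0.0335) and −4.08 without HFD mCherry replicate 15. Flt1, the endothelial receptor of Vegfb, was at 58.8, 50.5 and 51.8 CPM in SD mCherry and 118, 182 and 199 CPM in HFD mCherry, without overlap, with a diet log2 fold change of 1.63 ± 0.336 (edgeR adjusted p = 0.0659, DESeq2 0.000808). Vegfb itself went from 28.5 to 13.1 CPM (−1.12 ± 0.457, edgeR adjusted p = 0.177, DESeq2 0.0878). In both knock-in comparisons 0 of 20 regulators had an unadjusted p under 0.05, beside 6.62% higher and 9.75% lower of all genes in HFD Tert and 5.76% and 8.92% in HFD TertCi.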

How the data were processed

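The authors deposited raw read counts per gene symbol, 1 table per library, per the file headers. The submitters' processing notes name Subread, SAMtools, featureCounts 1.6.4 and mm10. Annotation and strand setting are not given in the sources used here. The design text names the high-fat diet control without mCherry, where the sample labels were followed. Counts were tested with edgeR 4.0.16 (R 4.3.3): filterByExpr (16713 genes), TMM, 1 quasi-likelihood fit to all 12 libraries, 2-sided, Benjamini-Hochberg over all genes, threshold 0.05. DESeq2 1.42.0, limma-voom 3.58.1, other scalings, no filter, the 2 groups alone, each library left out, and marker scores as covariates were alternatives. The adipocyte and macrophage covariates, the fit to 8 libraries and the correlations were added after the data were seen. CPM uses TMM-scaled sizes, and log2 CPM an offset of 0.1. The members and lists were chosen with earlier results of these data known. Counts of called members in the 2 knock-in comparisons were planned but are not given, because the choice used those comparisons. Named partners were up to 6 per direction with the smallest p among non-overlapping genes averaging 1 CPM or more, plus Fabp5, Fabp3, Angptl4, Lmf1, Pparg and Flt1. The pipeline was tested on simulated data. Symbols matched RefSeq GRCm38.p6 for 23204 of 24422 features.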

Additional observations from a re-analysis of the deposited data

How the results depend on the processing

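No paired analysis was possible because no replicate number occurs in more than 1 group. With edgeR 0 of the 10 genes were called in the diet comparison and in HFD Tert against HFD TertCi, and 0 of the partners in each of the 4, and at 3 libraries per group a common biological coefficient of variation of 0.536 limits what can be called. In HFD mCherry against SD mCherry, DESeq2 called 4 of the 10 genes and 22 partners, and a fit with the epididymal and epithelial score 4 and 18. In HFD Tert against HFD mCherry, DESeq2 called 6 partners, the endothelial score 18, the epididymal and epithelial score 9, and the macrophage score 3. In HFD TertCi against HFD mCherry, DESeq2 called 4 partners, the endothelial score 20, and the epididymal and epithelial score 10. DESeq2 called 1 partner, Aqp3, in HFD Tert against HFD TertCi, although its libraries overlapped between these groups. Leaving out 1 library at a time gave 0 to 2 of the 10 genes and 0 to 18 partners with diet, 0 to 0 partners in HFD Tert, and 0 to 2 in HFD TertCi. The 2 called with diet were Lpl and Cd36, without HFD mCherry replicate 15 (then 18 partners) or without HFD Tert replicate 27 (then 7 partners). The 2 partners called in HFD TertCi were Lrp1 and Slc27a6, without HFD mCherry replicate 15. The cause was not tested.

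The following log2 fold changes turned sign, and the cause was not tested. In HFD mCherry against SD mCherry they were, with the macrophage score, Fabp4 −0.036, Meox2 −0.59, Tcf15 −0.11, Slc27a4 1.01, Fabp3 0.65, Ppara 0.57 and Vegfb 0.50, with the endothelial score, Meox2 −0.47 and Slc27a4 0.51, with the adipocyte score, Slc27a4 0.036, Ppara 0.38 and Apoc3 0.96, and with library size only, Lmf1 −0.012. In HFD Tert against HFD mCherry they were, with the macrophage score, Cd36 0.91, Lpl 0.50, Slc27a3 0.41, Slc27a4 −0.83, Angptl4 0.58, Fabp3 −0.39 and Flt1 0.70, with the endothelial score, Aqp7 −0.042, Fabp5 −0.34 and Pparg −0.50, with the epididymal and epithelial score, Fabp5 −0.041 and Pparg −0.17, in the 8 libraries with Crisp1 above 500 CPM, Aqp7 −0.091, Slc27a3 0.24, Fabp5 −0.26 and Pparg −0.22, with the adipocyte score, Flt1 0.24, with library size only, Slc27a3 0.11, and with limma-voom, Slc27a3 0.048 and Pparg −0.030. In HFD TertCi against HFD mCherry they were, with the macrophage score, Cd36 0.45, Lpl 0.10, Slc27a3 0.021, Slc27a4 −0.69, Fabp3 −0.37, Lmf1 −0.23, Angptl4 0.16, Fabp5 0.66, Flt1 0.73 and Pparg 0.65, with the endothelial score, Aqp7 −0.019 and Meox2 −0.077, and with the adipocyte score, Aqp7 −0.0034 and Flt1 0.18. Between HFD Tert and HFD TertCi they were, with limma-voom, Fabp4 −0.092, Gpihbp1 −0.012 and Aqp7 −0.084, with the endothelial score, Fabp4 −0.037, Lpl −0.0085 and Aqp7 −0.022, and with the epididymal and epithelial score, Fabp4 −0.064, Cd36 −0.0019, Lpl −0.20, Gpihbp1 −0.0087, Aqp7 −0.042 and Meox2 −0.00012. In the 8 libraries with Crisp1 above 500 CPM, Fabp4 was at −0.34, Cd36 at −0.21, Lpl at −0.27, Gpihbp1 at −0.045, Aqp7 at −0.15 and Angptl4 at −0.21. Slc27a4 was at −0.011 with library size only, −0.22 with the adipocyte score and −0.14 with the macrophage score, Flt1 at 0.062 with the adipocyte score and Fabp3 at −0.020 with the macrophage score. Leaving out 1 library at a time turned the sign of genes that then ranged, with diet, over −0.098 to 0.60 for Slc27a1, and in HFD Tert over −0.022 to 0.84 for Aqp7, −0.23 to 0.23 for Slc27a3, −0.32 to 0.43 for Fabp5 and −0.40 to 0.29 for Pparg. In HFD TertCi the ranges were −0.046 to 0.16 for Lmf1 and −0.40 to 0.12 for Flt1. Between HFD Tert and HFD TertCi they were −0.74 to 0.82 for Fabp4, −0.37 to 0.90 for Cd36, −1.03 to 1.16 for Lpl, −0.36 to 0.61 for Gpihbp1, −0.28 to 0.58 for Aqp7, −0.22 to 0.47 for Meox2, −0.78 to 0.27 for Tcf15, −0.30 to 0.33 for Slc27a4, −0.20 to 0.81 for Angptl4, −0.052 to 1.06 for Fabp3 and −0.46 to 0.15 for Flt1.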
